A study of Mus musculus with 8 samples.

Results

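The genes described here mark the 3 kinds of vessel that endothelial cells (EC) line: arteries, veins and lymphatic vessels. They are 10 of the 54532 genes in the table of read counts and were chosen by name: *Gja4*, *Gja5*, *Sox17* and *Efnb2* for arteries, *Nr2f2*, *Ephb4* and *Ackr1* for veins, and *Prox1*, *Flt4* and *Lyve1* for lymphatic vessels. Counts came from 8 RNAseq libraries of GFP+ (mG+) cells that were FACS-sorted from female mice aged 8 months. WT mice were *Tie2e-cre; TERT+/+; mTmG* and KO mice *Tie2e-cre; TERTfl/fl; mTmG*, so that controls carried the Cre transgene and the reporter too. Cre was driven by the *Tie2e* promoter, and cells that had expressed it carried membrane GFP. There was 1 WT and 1 KO library from each of 4 sources: inguinal subcutaneous adipose tissue (SAT) of mice fed high-fat diet (HFD) from month 1 to month 8, and, on chow, SAT, gonadal visceral adipose tissue (VAT) and gastrocnemius muscle. The number of mice behind each library, and any sharing of mice among the chow tissues, is not given in the sources used here.

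Arterial and venous EC differ in identity as well as in flow. In arteries, SOX17 is a transcription factor that maintains arterial fate, *Efnb2* encodes the transmembrane ligand ephrin-B2, and *Gja4* and *Gja5* encode connexins 37 and 40, which form gap junctions between arterial EC. In veins, the nuclear receptor COUP-TFII (*Nr2f2*) holds down the arterial program, EPHB4 is the receptor that ephrin-B2 binds, and ACKR1 is a chemokine-binding receptor found on venules. Lymphatic EC arise largely from venous EC once *Prox1*, their master transcription factor, is switched on. FLT4 (VEGFR-3) is their receptor for VEGF-C, and LYVE1 is a hyaluronan receptor of lymphatic capillaries that some tissue-resident macrophages also carry.

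In the deposited coordinates (GRCm38), *Gja4* lies at chr4:127311421-127314039, *Gja5* at chr3:96904693-97077416, *Sox17* at chr1:4490931-4497354 and *Efnb2* at chr8:8617434-8661242. The venous genes *Nr2f2*, *Ephb4* and *Ackr1* lie at chr7:70351944-70366735, chr5:137350109-137378669 and chr1:173331886-173333750. *Prox1*, *Flt4* and *Lyve1* lie at chr1:190118035-190170714, chr11:49609263-49652739 and chr7:110850607-110863239. Exons of *Ackr1* share 361 bases with *Cadm3* on the same strand, and exons of *Gja5*, *Sox17*, *Nr2f2*, *Ephb4* and *Prox1* overlap a gene on the opposite strand by 33 to 804 bases. The strand setting of the counting is not given, so reads in these stretches could not be assigned with certainty.

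RefSeq (GRCm38.p6) gives promoters for 8 of the 10 genes. The 250 bases before the start of transcription were searched on both strands for 8 short motifs of vascular or core promoter factors. The letters for RBPJ were GTGGGAA, those for SOX factors ACAAT and those for FOX factors GTAAACA. The letters for GATA factors were AGATAA, those for nuclear receptors AGGTCA and those for ETS factors CCGGAA. The TATA box was searched as TATAAA and the E-box as CAGCTG. The 4 promoters that held a match are shown because they are 1 arterial connexin, the arterial ligand, the venule receptor and the lymphatic master factor. Capitals mark the matched bases. All 4 genes are on the minus strand, and each sequence reads 5′ to 3′ along it, from chr4:127314040-127314289 (*Gja4*), chr8:8661243-8661492 (*Efnb2*), chr1:173333504-173333753 (*Ackr1*) and chr1:190170828-190171077 (the first of 2 *Prox1* starts).
Gja4: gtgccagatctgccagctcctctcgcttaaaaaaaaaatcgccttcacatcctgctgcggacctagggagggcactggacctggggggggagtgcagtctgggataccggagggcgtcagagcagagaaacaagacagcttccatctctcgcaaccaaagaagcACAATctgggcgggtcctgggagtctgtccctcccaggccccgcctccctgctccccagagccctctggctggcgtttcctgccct
Efnb2: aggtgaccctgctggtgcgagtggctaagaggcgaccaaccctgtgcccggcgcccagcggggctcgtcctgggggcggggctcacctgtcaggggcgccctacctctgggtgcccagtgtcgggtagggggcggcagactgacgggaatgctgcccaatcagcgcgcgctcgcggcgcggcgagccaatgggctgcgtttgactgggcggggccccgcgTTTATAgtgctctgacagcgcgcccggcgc
Ackr1: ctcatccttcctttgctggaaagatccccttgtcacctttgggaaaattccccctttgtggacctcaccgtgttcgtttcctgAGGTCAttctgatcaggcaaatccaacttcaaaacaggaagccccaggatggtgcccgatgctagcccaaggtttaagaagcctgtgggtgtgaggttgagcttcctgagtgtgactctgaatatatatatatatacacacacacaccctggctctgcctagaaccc
Prox1: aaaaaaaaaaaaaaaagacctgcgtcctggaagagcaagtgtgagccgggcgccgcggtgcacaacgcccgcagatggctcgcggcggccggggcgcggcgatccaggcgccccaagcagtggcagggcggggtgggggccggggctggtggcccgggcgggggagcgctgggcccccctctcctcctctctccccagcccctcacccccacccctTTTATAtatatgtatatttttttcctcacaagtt
The SOX letters in *Gja4* began 86 bases before the start and occur in 27.7% of the 32851 promoters of the table. The nuclear receptor letters in *Ackr1* began 167 bases before the RefSeq start (14.0% of promoters). That window lies almost wholly inside the deposited gene (chr1:173331886-173333750), so the match is not upstream of the gene that was counted. The windows of *Gja5*, *Flt4* and the other *Prox1* start also lie inside their deposited genes. The TATA letters in *Efnb2* and *Prox1* began 30 and 34 bases before the start, on the opposite strand (12.4%). The letters of RBPJ, FOX, GATA, ETS and the E-box were in none of the windows of the 8 genes. They occur in 5.42%, 3.17%, 9.99%, 12.0% and 13% of promoters.

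Library totals ran from 6214269 to 18855772 counts. All 16 markers in a list of pan-endothelial genes were detected in each library, but their summed level, in TMM-scaled counts per 1000000 (CPM), ran from 397 and 404 (SAT on HFD, WT and KO) through 685 and 924 (SAT on chow) to 3047 and 2444 (VAT) and 2866 and 3468 (muscle). Markers of blood cells were also present: macrophage genes summed to 10920 to 11270 CPM in VAT against 215 to 992 elsewhere, neutrophil genes to 26820 and 30780 in muscle against at most 503 elsewhere, and B and T cell genes to 1513 to 2266 and 1845 to 3827 in SAT. *Tert*, the deleted gene, fell from 114 counts in the WT library to 0 in its KO partner (SAT on HFD), from 70 to 11 (SAT on chow) and from 24 to 7 (muscle). In VAT it had 3 and 9 counts (0.333 and 0.658 CPM), so it was not lower under the KO label. Counts this few, with WT at the floor of 3 counts used below, cannot settle the labels. The second library is called the VAT library labelled KO. The SAT libraries on HFD held many dropouts: of 2042 genes with 20 to 40 counts in KO, 42.8% (873) had none in WT, and of 2200 genes with 20 to 40 counts in WT, 30.0% had none in KO. The latter share was 1.75% to 1.90% in the other 3 pairs.

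The first question was how the level of each vessel gene differed by tissue and diet. All 10 genes had higher mean levels in VAT than in SAT on chow, and 9 had higher fitted levels in muscle than in SAT on chow, as the pan-endothelial genes did. *Lyve1* was called higher in VAT than in either other chow tissue, and *Ackr1* was lower in both muscle libraries than in both VAT libraries. In these bulk libraries, fewer cells of a type and less RNA per cell cannot be told apart.

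**Figure D1:**
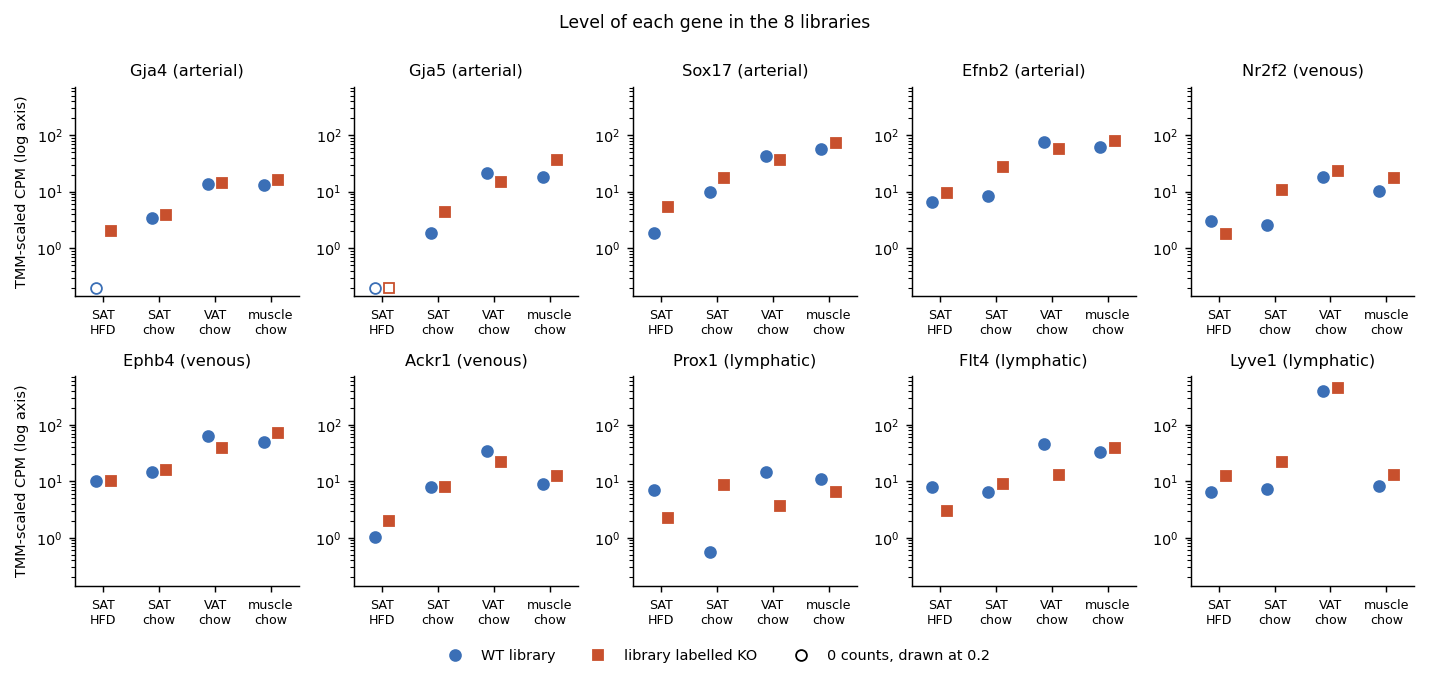
TMM-scaled CPM (log axis) of each gene in the WT library (circles) and the library labelled KO (squares) of each tissue and diet, with libraries at 0 counts drawn open at 0.2. The 4 arterial genes, *Ephb4*, *Ackr1* and *Flt4* are higher in each VAT and muscle library than in any SAT library. The SAT libraries of *Efnb2* and of *Flt4* overlap between diets. *Lyve1* is at 401 and 452 CPM in VAT and at most 22.0 elsewhere, and *Prox1* is at 0.557 CPM in the WT library of SAT on chow.

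Among the arterial genes, *Gja4* had 0 CPM (WT) and 2.01 CPM (KO) in SAT on HFD. On chow it had 3.40 and 3.78 CPM in SAT, 13.7 and 14.1 in VAT, and 13.1 and 16.1 in muscle. *Gja5* had 0 counts in both libraries of SAT on HFD, and on chow 1.86 and 4.40 CPM in SAT, 21.3 and 15.0 in VAT, and 18.2 and 36.7 in muscle. For both connexins, VAT and muscle overlapped and lay above SAT on chow. *Sox17* had 1.88 and 5.33 CPM in SAT on HFD, and on chow 10.03 and 17.4 in SAT, 42.8 and 36.9 in VAT, and 57.9 and 72.7 in muscle, and none of these 4 pairs of libraries overlapped. *Efnb2* had 6.65 and 9.42 CPM in SAT on HFD, and on chow 8.54 and 27.0 in SAT, 74.3 and 56.6 in VAT, and 62.4 and 78.6 in muscle. Its SAT libraries overlapped across diets, and VAT and muscle overlapped at the top.

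The venous genes did not share 1 order. *Ephb4* had 10.12 and 10.04 CPM in SAT on HFD, and on chow 14.4 and 15.8 in SAT, 63.1 and 38.2 in VAT, and 50.4 and 71.9 in muscle, the order of most arterial genes. *Nr2f2* was highest in VAT (18.1 and 23.2 CPM), above muscle (10.1 and 17.2), and its SAT libraries overlapped at 2.60 to 10.7 CPM on chow and 1.78 to 3.04 on HFD. *Ackr1* was also highest in VAT (35.1 and 21.6 CPM), while muscle (9.08 and 12.5) lay just above SAT on chow (7.80 and 7.94), and SAT on HFD was lowest (1.01 and 2.01).

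The lymphatic genes differed most from each other. *Prox1* had 7.09 and 2.24 CPM in SAT on HFD, and on chow 0.557 and 8.43 in SAT, 14.5 and 3.65 in VAT, and 10.9 and 6.34 in muscle, so that the 4 sources overlapped and no order could be given. *Flt4* had 7.81 and 2.94 CPM in SAT on HFD, and on chow 6.44 and 9.12 in SAT, 45.5 and 12.8 in VAT, and 32.4 and 38.5 in muscle. *Lyve1* had 401 and 452 CPM in VAT against 6.51 and 12.4 in SAT on HFD, 7.18 and 21.95 in chow-fed SAT, and 8.29 and 12.8 in muscle. The VAT libraries stood apart for *Lyve1*, and the other 3 sources overlapped. Per kilobase of gene length, *Lyve1* was the highest of the 10 genes in VAT (137 and 155 CPM per kb, against 24.97 and 15.3 for *Ackr1*, the next). In muscle it was among the lower ones (2.84 and 4.39), below *Sox17* at 12.1 and 15.2 and *Ephb4* at 10.9 and 15.5.

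In the test of VAT against SAT on chow (edgeR's quasi-likelihood test over 16971 genes, genotype as covariate), 2 of the 10 genes were called higher and 0 lower, where 3.13% of all genes were called higher and 1.87% lower. At an unadjusted p under 0.05, 8 were higher (9.92% of all genes), and DESeq2 called 6, where it called 13.6% of all genes in either direction. The 2 were *Lyve1* (log2 fold change 5.06, SE 0.44, 33.3-fold, adjusted p = 0.00397) and *Ephb4* (1.74, SE 0.39, 3.35-fold, adjusted p = 0.0475). The libraries did not overlap for 9 of 10 genes, all higher in VAT, against 26.6% of all genes, and the exception was *Prox1*. The median log2 fold change was 1.83 over the 10 genes, 2.07 over the 16 pan-endothelial genes and −0.13 over all genes tested. Without 1 of the libraries SAT HFD KO, SAT chow WT, VAT WT, VAT labelled KO, muscle WT or muscle KO, *Ephb4* lost its call (adjusted p 0.0645 to 0.376). Without SAT chow KO 6 of the 10 were called, when 20.9% of all genes were, and without SAT HFD WT 4 were (6.37%). *Lyve1* was called in each of the 15 alternatives run. SAT on chow serves as the reference for VAT, muscle and HFD alike, so these comparisons share libraries.

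In muscle against SAT on chow, 0 of 10 genes were called by edgeR (1.27% of all genes were called, 1.1% higher and 0.165% lower). At an unadjusted p under 0.05, 5 were higher, against 6.91% of all genes, and DESeq2 called 5, where it called 6.23% of all genes. The 5 with an unadjusted p under 0.05 were *Gja5* (log2 3.14, SE 0.67, adjusted p = 0.0944), *Sox17* (2.30, SE 0.45, adjusted p = 0.0601), *Efnb2* (2.09, SE 0.49, adjusted p = 0.104), *Ephb4* (2.02, SE 0.40, adjusted p = 0.0592) and *Flt4* (2.17, SE 0.65, adjusted p = 0.203). Libraries did not overlap for 7 genes, all higher in muscle (20.7% of all genes). *Ackr1* was not among the 5 (0.45, SE 0.56), although its libraries did not overlap, and *Lyve1* had a value of −0.34 (SE 0.38) that became 0.26 without the KO library of SAT on chow. Without that library, edgeR called 4 genes: *Sox17*, *Efnb2*, *Ephb4* and *Prox1* (adjusted p 0.0143 to 0.0461), when 10.5% of all genes were called. Without the WT library of SAT on HFD it called *Sox17* (adjusted p = 0.0398) and 1.92% of all genes.

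In muscle against VAT, 1 of the 10 genes was called, lower in muscle: *Lyve1* (log2 −5.40, SE 0.45, adjusted p = 0.00457), where 1.03% of all genes were called lower. This call held in each of 15 alternatives. *Ackr1* was lower in both muscle libraries (log2 −1.42, SE 0.57, adjusted p = 0.344), with an unadjusted p of 0.0386 in edgeR's test (6.13% of all genes were lower and 6.66% higher at 0.05). *Sox17* was the 1 gene whose muscle libraries lay above both VAT libraries (0.67, SE 0.43, adjusted p = 0.661), against 33.4% of all genes, while *Nr2f2*, *Ackr1* and *Lyve1* lay below, against 28.6%.

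Relative to the summed pan-endothelial level of the same library, the range over the chow libraries narrowed for each gene except *Lyve1*. The range of *Lyve1* was 62.9-fold in CPM and 63.9-fold relative to that level. In the 6 chow libraries, *Gja4* ranged 4.74-fold in CPM but from 4.10 to 5.77 per 1000 endothelial CPM, a range of 1.41-fold. *Sox17* ranged 7.25-fold in CPM and 1.495-fold on this scale (14.0 to 21.0), and *Ephb4* 4.99-fold and 1.35-fold (15.6 to 21.1). *Efnb2* ranged from 12.5 to 29.3 and *Gja5* from 2.71 to 10.6. The 2.35-fold range of *Efnb2* was set by the WT and KO libraries of SAT on chow, with 21.8 to 24.4 in VAT and muscle.

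The order of the other genes could change on that scale. *Ackr1* had 3.17 and 3.61 per 1000 endothelial CPM in muscle, against 11.5 and 8.82 in VAT and 11.4 and 8.60 in SAT on chow, so that muscle lay below SAT on chow, whereas in CPM it lay above. *Lyve1* had 132 and 185 in VAT, 10.5 and 23.8 in SAT on chow, 16.4 and 30.6 in SAT on HFD and 2.89 and 3.70 in muscle, so that muscle lay below the other sources, although in CPM it overlapped with SAT. *Prox1* ranged 11.2-fold over the chow libraries, from 0.814 to 9.13, both in SAT. No test was run on this scale.

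**Figure D2:**
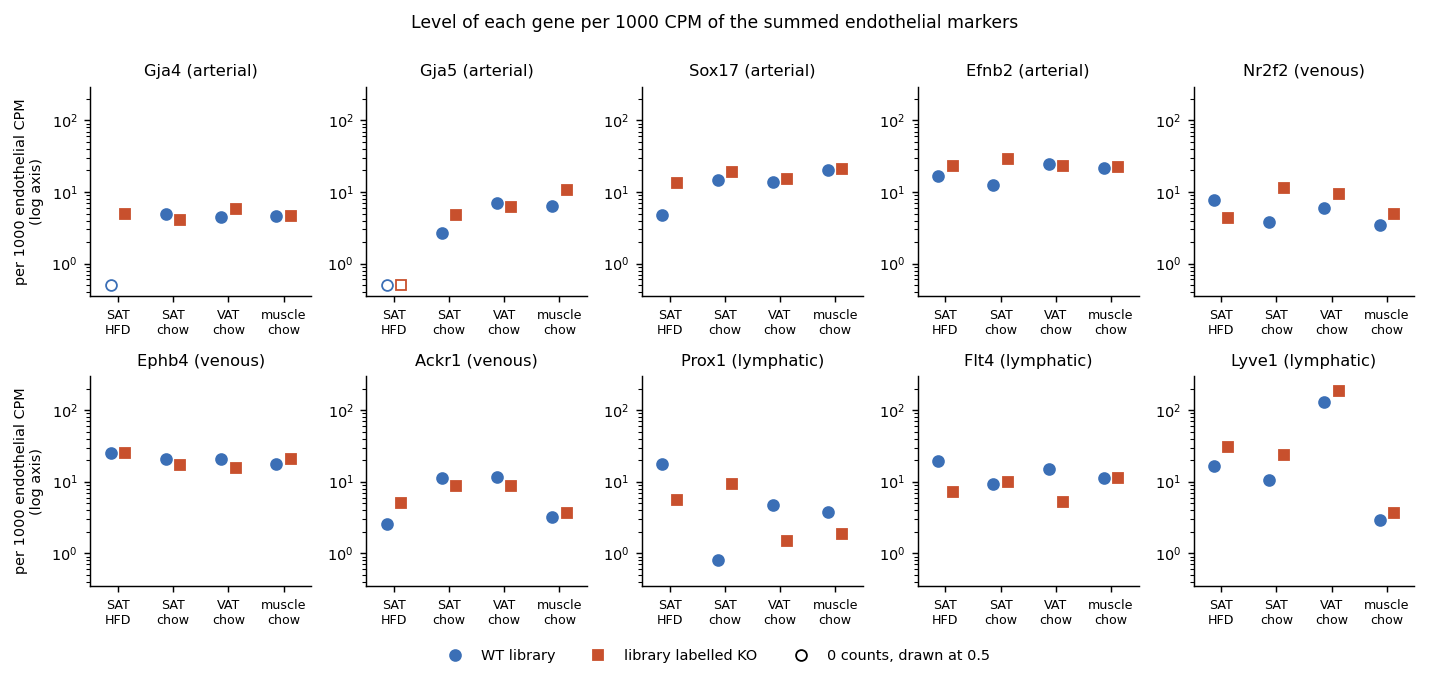
CPM of each gene per 1000 CPM of the summed 16 pan-endothelial genes (log axis) in each library, WT as circles and labelled KO as squares, with libraries at 0 counts drawn open at 0.5. *Gja4* lies between 4.10 and 5.77 in the 7 libraries with counts, *Ephb4* between 15.6 and 25.5 in all 8, and *Ackr1* in muscle (3.17 and 3.61) lies below VAT and SAT on chow.

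Further vessel markers were taken as lists. Of 15 other arterial genes, 15 had a positive log2 fold change in VAT and in muscle over SAT on chow, with medians of 1.99 and 2.16, and 3 and 1 were called higher, where 3.13% and 1.1% of all genes were. In VAT these were the coreceptor gene *Nrp1* (2.37), the chemokine gene *Cxcl12* (2.04) and the BMP receptor gene *Acvrl1* (1.54), and in muscle *Acvrl1* (1.93). Of 12 other venous genes, 6 were called higher in VAT (median 2.23, against 3.13% of all genes called), led by the P-selectin gene *Selp* (3.56), *Mctp1* (3.16) and *Tmem252* (2.95). In muscle 2 were called higher (median 1.01, against 1.1% of all genes called), *Lrg1* (2.52) and *Mctp1* (2.37). Against VAT, the venous list had a median of −0.92 in muscle, with 9 of 12 genes at a negative value, and the arterial list a median of 0.24, against 0.06 over all genes.

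The 12 other lymphatic genes had medians of 1.55 in VAT and 0.65 in muscle over SAT on chow. Among them the transcription factor gene *Maf*, which macrophages also express, was called higher in VAT (1.90, adjusted p = 0.0162) and lower in muscle than in VAT (−2.71, adjusted p = 0.0076). *Gata2*, a regulator of lymphatic valves that hematopoietic cells express too, was called higher in muscle than in SAT on chow (3.39, adjusted p = 0.0252). In the other lists, *Nrp2*, the VEGF-C coreceptor gene, was the 1 of 6 genes of the VEGF-C axis called in VAT (2.78, adjusted p = 0.0135). The medians in VAT over SAT on chow were 0.91 for 9 Eph and ephrin genes, 1.85 for 3 further connexins and 1.01 for 4 further SOXF and NR2F genes.

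In SAT, HFD was compared with chow. All 10 genes had a negative fitted log2 fold change on HFD, with a median of −1.14 against −0.32 over all genes and −1.33 over the pan-endothelial genes. For *Prox1* (−0.30, SE 1.41) the mean CPM was nonetheless 4.66 on HFD and 4.495 on chow. edgeR called 0 of 10 and 0% of all genes, DESeq2 called 1 (*Gja5*) and 1.53% of all genes, and 3 were lower at an unadjusted p under 0.05, against 8.84% of all genes. These were *Gja5*, *Sox17* (−1.94, SE 0.47, adjusted p = 0.349) and *Ackr1* (−2.36, SE 0.61, adjusted p = 0.406). These values were not called. *Gja5*, at 0 counts in both HFD libraries, was at least 9.41-fold lower than its mean of 3.13 CPM on chow, taking 3 counts per library as the floor (edgeR's unadjusted p = 0.000429, adjusted p = 0.166). Of 2253 genes with a mean of 2 to 5 CPM in SAT on chow, 201 (8.92%) were likewise at 0 in both HFD libraries.

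Libraries on HFD and chow did not overlap for 5 genes, *Gja4*, *Gja5*, *Sox17*, *Ephb4* and *Ackr1*, all lower on HFD (26.6% of all genes). Against the pan-endothelial sum, *Ephb4* on HFD (25.5 and 24.9 per 1000 endothelial CPM) was not below chow (21.1 and 17.1). *Gja4* overlapped between diets on this scale (0 and 4.969 against 4.972 and 4.096). *Ackr1* (2.55 and 4.97 against 11.4 and 8.60) and *Sox17* (4.73 and 13.2 against 14.6 and 18.8) were below chow, as was *Gja5* with its 0 counts. Without the KO library of SAT on chow, *Flt4*, *Lyve1* and *Prox1* had positive values (0.08, 0.09 and 3.56), and *Prox1* was also positive without the KO library of SAT on HFD (0.65) or either VAT library (0.32).

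Across the 4 pairs, KO was compared with WT with tissue and diet as a block. edgeR called 0 of the 10 genes and 1 of 16971 genes (0.00589%), and DESeq2 called 0 of the 10 and 0.112% of all genes. In the 3 pairs in which *Tert* followed the labels, 5 of the 10 genes (*Gja4*, *Sox17*, *Efnb2*, *Ackr1* and *Lyve1*) were higher in KO each time, as 11.7% of all genes were. *Gja4* and *Lyve1* were higher in the VAT library labelled KO too, in 4 of 4 pairs as labelled, as 5.26% of all genes were (4.31% were lower in all 4), which would be 3 of 4 pairs were the VAT labels exchanged. The counting intervals of *Gja4* spanned 0 in SAT on chow and in VAT. In edgeR's test *Lyve1* was the 1 gene of the 10 with an unadjusted p under 0.05 (log2 0.82, SE 0.27, unadjusted p = 0.0172, adjusted p = 1.0), a level that 1.05% of all genes reached as higher and 0.577% as lower. Adjusted p-values for *Lyve1* ran from 0.808 to 1.0 over 11 alternatives. The 4 arterial genes had values of 0.51 to 0.78 with SEs of 0.32 to 0.77, *Nr2f2* 0.62 (SE 0.52), *Flt4* −0.60 (SE 0.47) and *Prox1* −0.53 (SE 1.06). *Ephb4* (−0.02, SE 0.28) and *Ackr1* (0.14, SE 0.41) lay nearest to 0. Without the VAT pair, *Lyve1* was 1.08, *Gja4* 1.24, *Prox1* 0.16 and *Ephb4* 0.24, and none of the 10 was called.

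Within a pair there is 1 library of each genotype, so a difference describes those libraries and has no test. Intervals are exact 95% intervals that cover counting error only, and a gene is counted as beyond 2-fold where its whole interval is.

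**Figure D3:**
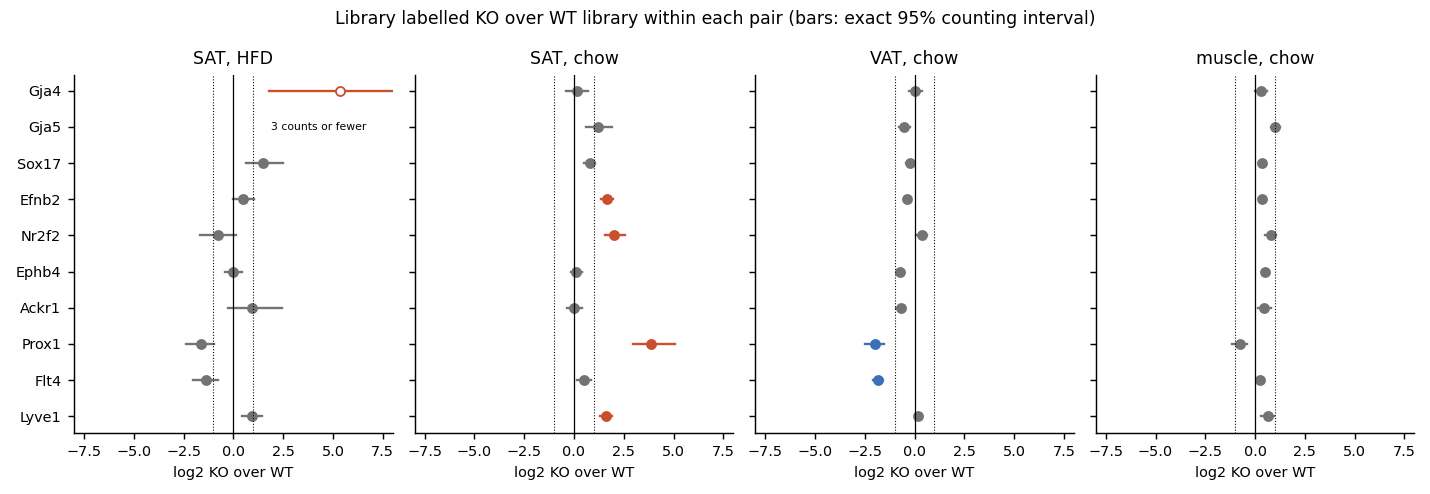
Log2 ratio of the library labelled KO to the WT library for each gene in each pair, with exact 95% counting intervals, dotted lines at 2-fold, colour where the whole interval lies beyond 2-fold and an open point where 1 library had 0 counts (its position depends on the added 0.5 counts). *Prox1* is at 3.85 in SAT on chow and −1.98 in VAT, where *Flt4* is at −1.83, and in muscle 9 of 10 genes lie to the right of 0.

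In SAT on chow, all 10 genes were higher in KO, with a median of 1.01 against 0.00 over all genes. The intervals of 4 lay beyond 2-fold, where 19.1% of all genes did: *Prox1* (9 counts in WT, 136 in KO, log2 3.85, interval 2.95 to 5.08), *Nr2f2* (42 and 172 counts, 2.02, 1.54 to 2.56), *Efnb2* (138 and 436 counts, 1.66, 1.38 to 1.95) and *Lyve1* (116 and 354 counts, 1.61, 1.31 to 1.93). *Gja5* (1.23), *Sox17* (0.79) and *Flt4* (0.50) were higher beyond counting error, as 41.1% of all genes were (40.2% were lower), and the intervals of *Gja4*, *Ephb4* and *Ackr1* spanned 0. Scaled to the pan-endothelial sum, which was itself 0.43 higher in KO, 2 were beyond 2-fold (*Prox1* at 3.43 and *Nr2f2* at 1.595). With the trend on gene length removed, 2 were (*Prox1* at 3.35 and *Lyve1* at 2.08). *Malat1*, a nuclear RNA named after its values were seen, had 299 CPM in WT and 6005 in KO in this pair. Stromal markers summed to 1158 and 3955 CPM (9 of 12 beyond 2-fold higher) and mural markers to 81.8 and 263 CPM (7 of 11 higher and 1 lower). Macrophage markers summed to 962 and 526 CPM (5 of 13 lower) and T cell markers to 3827 and 1965 CPM (5 of 9 lower). Neutrophil markers summed to 298 and 81.9 CPM (7 of the 9 with enough counts lower). Of all genes, 11.5% were beyond 2-fold lower. Their part in these differences was not tested.

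In SAT on HFD, 1 gene was beyond 2-fold in the higher direction, as 12.9% of all genes were: *Gja4*, with 0 counts in WT, 26 in KO, at least 4.63-fold higher against a floor of 3 counts. *Sox17* (13 and 69 counts, log2 1.48) and *Lyve1* (45 and 160 counts, 0.92) were higher beyond counting error, as was *Efnb2* (0.50), against 39.4% of all genes. *Prox1* (49 and 29 counts, −1.64) and *Flt4* (54 and 38 counts, −1.40) were lower (33.2% of all genes), though not beyond 2-fold (10.9%). The part of the dropouts described above in these values was not tested.

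In VAT, 7 genes were lower and 3 higher in the library labelled KO, with a median of −0.45 against 0.01 over all genes and −0.32 for the pan-endothelial sum. Beyond 2-fold were the lymphatic genes *Prox1* (131 and 50 counts, log2 −1.98, interval −2.49 to −1.51) and *Flt4* (410 and 175 counts, −1.83, interval −2.10 to −1.57), where 2.09% of all genes were beyond 2-fold lower and 2.4% higher. Both were still beyond 2-fold against the pan-endothelial sum (−1.66 and −1.51). *Lyve1* did not share this: it had 3611 and 6179 counts (0.17, interval 0.11 to 0.23). *Ephb4* (−0.72), *Ackr1* (−0.70), *Gja5* (−0.51), *Efnb2* (−0.39) and *Sox17* (−0.21) were lower beyond counting error (24.7% of all genes) and *Nr2f2* (0.36) higher (26.6%), and *Gja4* (0.05) spanned 0. Mural markers summed to 225 and 804 CPM (WT first), with 7 of 11 beyond 2-fold higher, and stromal markers to 1560 and 2862 CPM, with 3 of 12. Their part in these differences was not tested.

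In muscle, 9 of 10 genes were higher in KO beyond counting error, as 27.1% of all genes were, and 0 were beyond 2-fold, where 2.76% of all genes were beyond it in the higher and 2.01% in the lower direction. The median was 0.40 against 0.00 over all genes and 0.28 for the pan-endothelial sum. *Gja5* (296 and 498 counts, 1.01, interval 0.80 to 1.23), *Nr2f2* (0.77) and *Lyve1* (0.63) were the highest. *Prox1* was the 1 gene that was lower, as 28.9% of all genes were (177 and 86 counts, −0.77, interval −1.17 to −0.40). Mural markers summed to 249 CPM in WT and 455 in KO (5 of 11 beyond 2-fold higher), stromal markers to 1088 and 1857 CPM (3 of 12 higher), erythroid markers to 709 and 136 CPM (5 of 8 lower and 1 higher) and macrophage markers to 992 and 617 CPM (4 of the 11 with enough counts lower). Their part in these differences was not tested.

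*Prox1* is also made by muscle satellite cells, and a list of 10 satellite cell and muscle fiber genes summed to 52.9 CPM in the WT library of muscle and 11.1 in KO, with *Pax7*, the defining factor of satellite cells, at 283 and 16 counts. In VAT that list summed to 123 and 7.16 CPM, and in SAT on chow, where *Prox1* was higher in KO, to 26.7 and 11.7 CPM. Most of the WT sum in these was the fiber actin gene *Acta1*, at 90.3 CPM in VAT and 15.4 in SAT on chow, whereas *Pax7* had 18 and 0 counts in VAT and 20 and 0 in SAT on chow. In SAT on HFD, where *Prox1* had 49 and 29 counts, the list summed to 39.6 and 6.10 CPM. *Pax7* had 0 counts in both of those libraries. *Acta1* and, in adipose tissue, *Pax7* were named after their values were seen. The part of these cells in the *Prox1* values was not tested.

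The other lymphatic genes were set beside *Prox1* and *Flt4*. In VAT, 4 of 12 were beyond 2-fold lower in the library labelled KO, against 2.09% of all genes, and 0 higher. The intervals of 9 of the 12 lay below 0, against 24.7% of all genes. That held as well for 9 of 12 other venous genes, 8 of 14 other arterial genes and 11 of 16 pan-endothelial genes. *Reln*, a secreted glycoprotein gene of lymphatic EC, had 492 counts in WT and 36 in the one labelled KO (log2 −4.35, interval −4.91 to −3.89). *Ccl21a*, the lymphatic chemokine, had 50 and 4 counts (−4.06, interval −6.18 to −2.80), and *Tbx1*, a transcription factor gene, had 26 and 0, at least 13.2-fold lower. The fourth, *Mmrn1*, which encodes a multimerin of lymphatic EC, had 404 and 114 counts (−2.42, interval −2.74 to −2.13) and is outside the rule for named genes, so it was chosen after its values were seen. The median of the list was −0.46. Its remaining 8 genes ran from −0.79 to 1.82, among them *Itga9* (−0.04), *Pdpn* (0.29) and *Foxc2* (1.82, from 10 and 55 counts), also named after their values were seen. Of 12 other venous genes 1, *Vwf*, was beyond 2-fold lower too (3846 and 2299 counts, −1.35), and 0 of 14 other arterial genes were in either direction.

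In muscle, 2 of the 12 were beyond 2-fold and both were higher in KO, against 2.76% of all genes: *Ccl21a* (16 and 59 counts, 2.11) and *Mmrn1* (77 and 188 counts, 1.54 on the log2 scale). *Reln*, named here after its values were seen, had 152 and 219 counts (0.79), and *Flt4* had 528 and 523 (0.25). In SAT on chow, 1 was beyond 2-fold, *Sned1* (99 and 882 counts, 3.15), where 19.1% of all genes were beyond it in that direction. *Ccl21a*, named here after its values were seen, had 86 and 29 counts (−1.55, interval −2.23 to −0.94). In SAT on HFD, *Reln* and *Tbx1* had 0 and 24 counts and *Itga9* 45 and 0. In that pair, 42.8% of all genes with 20 to 40 counts in KO had 0 in WT. Of those with 20 to 40 counts in WT, 30.0% had 0 in KO, a range that the 45 counts of *Itga9* lie just above.

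**Figure D4:**
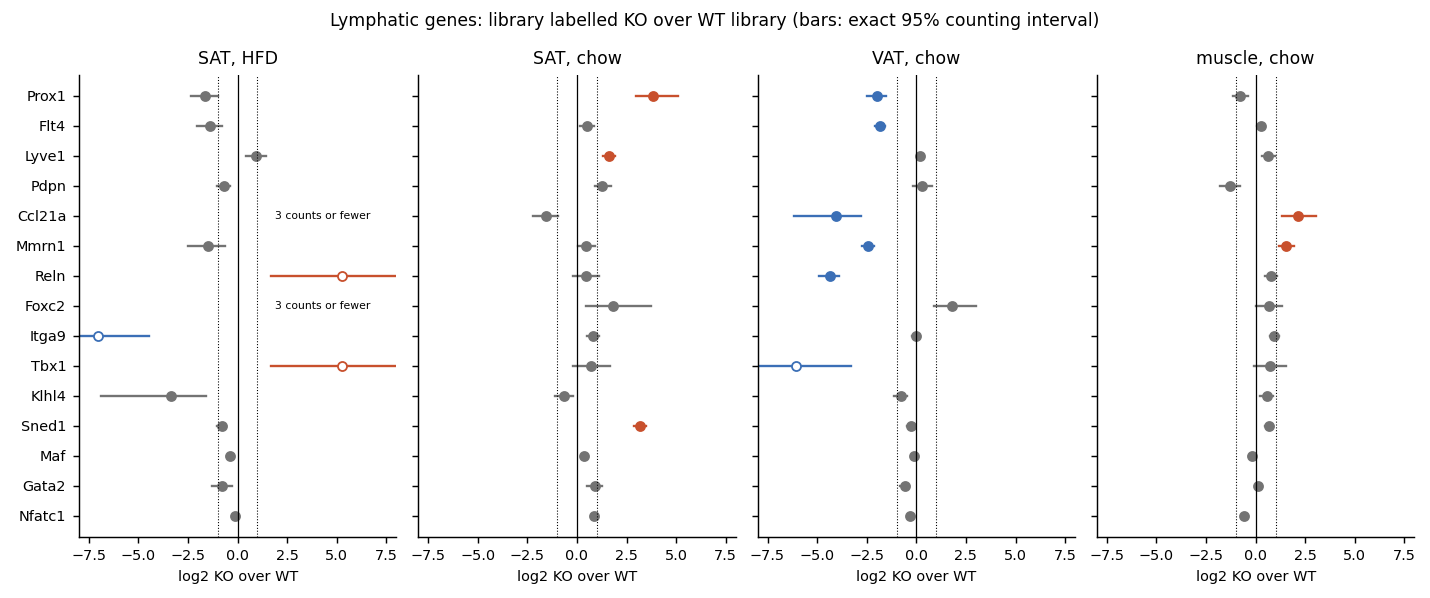
Log2 ratio of the library labelled KO to the WT library for *Prox1*, *Flt4*, *Lyve1* and 12 other lymphatic genes in each pair, with exact 95% counting intervals, drawn as in the plot of the 10 genes and coloured where the pair's mean count was at least 10. In VAT, *Prox1*, *Flt4*, *Ccl21a*, *Mmrn1*, *Reln* and *Tbx1* lie beyond 2-fold lower while *Lyve1* lies at 0.17, and in muscle *Ccl21a* and *Mmrn1* lie beyond 2-fold higher.

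In SAT on chow, 4 of 13 other arterial genes were beyond 2-fold higher in KO, against 19.1% of all genes, led by the netrin receptor gene *Unc5b* (2.41), the Notch ligand gene *Jag1* (1.59) and *Sema3g* (1.56). So were 3 of 12 venous genes, the E-selectin gene *Sele* (3.0), *Il1r1* (2.05) and *Selp* (1.74), and 1 was beyond 2-fold lower, as 11.5% of all genes were (*Lrg1*, −1.25, outside the rule for named genes and chosen after its values were seen). In muscle, *Hey2*, a Notch target, was the 1 of 15 other arterial genes beyond 2-fold (16 and 55 counts, 2.01), against 2.76% of all genes in that direction. Of 9 receptors and ligands around *Efnb2* and *Ephb4*, 1 was beyond 2-fold higher in KO in SAT on chow (*Epha2*, 1.66) and 1 lower (*Ephb6*, −1.24). Of all genes, 19.1% and 11.5% were. In the VAT library labelled KO, 1 of 8 was lower (*Epha4*, −1.42), against 2.09% of all genes. In SAT on HFD, 1 of 7 was lower, against 10.9% of all genes. This was *Efna1*, with 57 and 0 counts, in the pair with many dropouts. *Gja1* and *Gjc1*, the connexins 43 and 45, were beyond 2-fold higher in KO in SAT on chow (2.43 and 2.32). They were 2 of the 4 further connexins with enough counts, against 19.1% of all genes.

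*Lyve1* was set beside macrophage genes because both were high in VAT. Summed levels of 13 macrophage markers were 11270 and 10920 CPM in VAT. All 13 were called higher there than in SAT on chow, against 3.13% of all genes. *Lyve1* per 1000 macrophage CPM was 35.6 and 41.4 in VAT, 7.46 and 41.7 in SAT on chow, 18.8 and 57.4 in SAT on HFD and 8.36 and 20.8 in muscle. On this scale VAT did not stand apart from SAT. The KO library was higher than WT in the 3 pairs in which *Tert* followed the labels, and so was the VAT library labelled KO. The part of macrophages in the level of *Lyve1* was not tested.

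**Figure D5:**
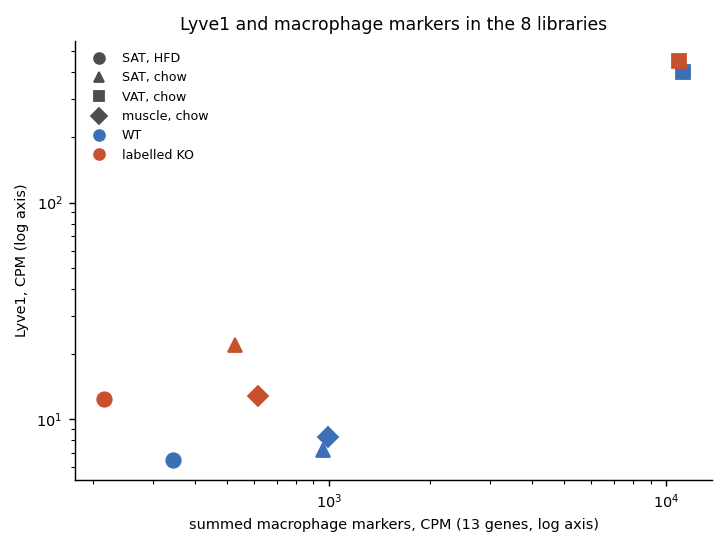
*Lyve1* (CPM, log axis) against the summed CPM of 13 macrophage markers (log axis) in the 8 libraries, with shapes for tissue and diet, blue for WT and orange for labelled KO. Both VAT libraries lie apart at the top right (401 and 452 CPM), and in the other 3 sources the KO library has less macrophage signal and more *Lyve1* than its WT library.

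Genes with the pattern most like each member were found by Pearson's correlation of log2 CPM over the 8 libraries, among 12368 genes whose mean was 50 counts or more. These values describe 8 points that share tissue, endothelial content and dropouts. *Gja4* was most like *Adgrl4* (r = 0.999), *Gja5* like *Sncaip* (0.999), *Sox17* like *Foxc1* (0.997) and *Efnb2* like *Epas1* (0.998). *Nr2f2* was most like *Arl15* (0.987), *Ephb4* like *5830432E09Rik* (0.993) and *Ackr1* like *Sgk3* (0.989). *Prox1* had the loosest best match (*Brwd3*, 0.959), *Flt4* was most like *Mall* (0.981), *Epha4* (0.979) and *Vwf* (0.965), and *Lyve1* like *Cdc42bpg* (0.991), *Wwp1* (0.985) and *Slc16a7* (0.984).

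With the pan-endothelial sum, the correlation over the 8 libraries was 0.986 for *Ephb4*, 0.973 for *Efnb2*, 0.959 for *Sox17*, 0.941 for *Gja5*, 0.910 for *Flt4* and 0.901 for *Nr2f2*, and lower for *Ackr1* (0.859) and *Gja4* (0.806). It was 0.521 for *Lyve1*, whose correlation with the macrophage sum was 0.903, and 0.487 for *Prox1*. *Efnb2* and its receptor *Ephb4*, of opposite vessel types, had r = 0.951 with each other, while *Prox1* and *Lyve1*, both lymphatic, had 0.295.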

How the data were processed

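Counts per Ensembl gene, whole numbers with no normalization, were used as the authors deposited them for 8 libraries. Per the labels, libraries were made with a SMARTER mRNA kit from column-isolated RNA, while the methods name Trizol, and the submitters' processing notes name HISAT2 2.0.5 and GRCm38/mm10. The counting program, its strand setting and the read length are not given in the sources used here.

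Libraries were scaled by TMM factors computed on the full table of 54532 genes. Tests covered the 16971 genes averaging 10 counts or more. edgeR 4.0.16 (robust quasi-likelihood test, R 4.3.3) was fitted on all 8 libraries with 4 levels of tissue and diet and a genotype term (3 residual degrees of freedom, common dispersion 0.321), with Benjamini-Hochberg adjustment at 0.05. Since each tissue and diet has 1 library per genotype, its spread is that between WT and KO, and nothing says that libraries came from separate groups of mice, so p-values measure only the spread between these libraries. SEs are the absolute log2 fold change over the square root of F. Pairing was checked by the correlation of WT and KO deviations (0.253 and 0.057 in SAT of HFD and chow mice, 0.561 in VAT, 0.517 in muscle, and −0.333 to 0.176 between sources), and the block is tissue and diet.

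Within pairs, log2 ratios used a prior count of 0.5 and exact conditional binomial (Clopper-Pearson) 95% intervals, for genes averaging 10 counts or more in the pair. A floor of 3 counts gave the bounds. Alternatives were other scalings, filters of at least 1 count or a mean of 50 counts, DESeq2 1.42.0, a prior count of 5, the pan-endothelial sum, leaving out libraries or pairs and, chosen after seeing the data, removal of the trend over 100 bins of gene length. The fit was tested on simulated data. The 10 genes and the lists were chosen with earlier results of these data known. All 10 genes are named. Of every other list, at most 3 genes per comparison are named, those with the largest absolute log2 fold change past the threshold (within a pair, beyond 2-fold), and other names are said to be chosen after their values were seen. The likest genes are the 3 with the highest correlation.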

Additional observations from a re-analysis of the deposited data

Results flagged for a closer look

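Genes whose counting intervals lay beyond 2-fold in opposite directions in different pairs were listed. With 1 library per genotype in a pair, none of these differences between pairs was tested. *Prox1* had a log2 ratio of the library labelled KO to WT of 3.85 in SAT on chow and −1.98 in VAT. *Ccl21a* had −4.06 in VAT and 2.11 in muscle, and *Mmrn1* −2.42 in VAT and 1.54 in muscle. *Reln* had −4.35 in VAT and 5.24 in SAT on HFD, and *Tbx1* −6.06 and 5.24. The values of *Reln* in SAT on HFD and both values of *Tbx1* come from libraries with 0 counts and depend on the added 0.5 counts. Against a floor of 3 counts, both genes are at least 4.27-fold higher in SAT on HFD, and *Tbx1* is at least 13.2-fold lower in VAT. In SAT on HFD, however, 42.8% of genes with 20 to 40 counts in KO had 0 in WT, and the part of such dropouts was not tested. These 4 genes other than *Prox1* are among the 12 other lymphatic genes. All 5 share a negative value in VAT, but a fall beyond 2-fold in some pair was required for a gene to be listed. *Tert* had 3 counts (WT) and 9 (labelled KO) in VAT, too few to settle its labels.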

How the results depend on the processing

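Leaving out 1 library at a time, the number of the 10 genes called ran from 1 to 6 (VAT over SAT on chow, 2 with all libraries) and from 0 to 4 (muscle over SAT on chow, 0). DESeq2 called 6 and 5 in these comparisons and 1 for HFD over chow. With all genes of at least 1 count the numbers were 5, 5 and 2, where 7.09%, 3.28% and 1.07% of 29627 genes were called. Library totals and the upper quartile each gave 1 for VAT, and a mean of 50 counts gave 2 and no genotype term 1 for muscle. In every setting run, the number was 0 for KO over WT and 1 for muscle over VAT. Over all genes, calls ran from 108 to 3510 for VAT over SAT on chow (849), 39 to 1771 for muscle over SAT on chow (215), 39 to 1264 for muscle over VAT (343), 0 to 441 for HFD over chow (0) and 0 to 42 for KO over WT (1). Within pairs, the number beyond 2-fold higher in SAT on chow fell from 4 to 2 against the pan-endothelial sum and with the length trend removed, and the number lower in SAT on HFD rose from 0 to 1 (*Prox1*) with median-of-ratios factors and with the length trend removed.

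The labels carry no replicate numbers, and the replicate block is the tissue and diet. Without the replicate block, *Ackr1* in KO over WT turned from 0.14 to −0.266, *Lyve1* was 0.24, and no call of the 10 genes changed. Other turns of sign were of values that were not called. With library totals *Ephb4* was 0.0915 in KO over WT, and with no genotype term *Prox1* was 0.0398 for HFD over chow and −0.0761 for muscle over VAT. In muscle over VAT, *Gja4* was −0.0316 (DESeq2), −0.0295 (median-of-ratios factors) and −0.0205 (upper quartile), *Efnb2* −0.03, −0.0297 and −0.0252, and *Prox1* −0.0602, −0.0617 and −0.0541. Leaving out 1 pair, KO over WT ran from −0.210 to 0.240 for *Ephb4*, −0.0742 to 0.494 for *Ackr1* and −1.47 to 0.165 for *Prox1*. Leaving out 1 library, HFD over chow ran from −1.66 to 3.56 for *Prox1*, −1.25 to 0.0817 for *Flt4* and −0.834 to 0.0949 for *Lyve1*. Against SAT on chow, *Prox1* ran from −0.750 to 4.45 for VAT and −0.600 to 4.65 for muscle, and *Lyve1* ran from −0.706 to 0.258 for muscle. Muscle over VAT ran from −0.516 to 0.676 for *Gja4*, −0.371 to 1.34 for *Gja5*, −0.563 to 0.725 for *Efnb2*, −0.248 to 0.756 for *Ephb4*, −0.893 to 1.30 for *Prox1* and −0.344 to 1.38 for *Flt4*. The cause was not tested.

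Another scaling moved all genes alike, by 0.24 to 0.30 for HFD over chow, and by 0.18 and 0.11 for VAT and muscle over SAT on chow with median-of-ratios factors. Within pairs library totals moved them by 0.23 in SAT on chow and 0.16 in muscle. Without *Kdr*, *Flt1* and *Tek* in the pan-endothelial list, values per 1000 endothelial CPM were 1.11 to 1.32 times as high. In SAT on HFD, *Gja4*, *Gja5*, *Nr2f2* and *Ackr1* had 0 to 26 counts, fewer than in any other source. *Sox17*, *Efnb2*, *Ephb4* and *Flt4* also had fewer counts there than in any other source. These counts are not scaled, and the WT library of SAT on HFD had the smallest total. A library left alone in its group was assumed to vary like the others.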
